A study of Mus musculus with 1600 samples.

Results

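Expression of 10 genes of the bone morphogenetic protein (BMP) pathway was followed through mouse limb development: the ligands Bmp2, Bmp4 and Bmp7, the type I receptors Bmpr1a and Bmpr1b, the inhibitory Smads Smad6 and Smad7, and the target genes Id1, Id2 and Id3. The genes were taken by symbol from the 22092 gene symbols of the count table. All 10 were found, with 1 entry each, and all 10 were among the 13125 genes read in 10 or more kept cells, the filter used for comparisons between stages. BMPs are secreted dimers that bring type I and type II receptor kinases together, and the active receptor phosphorylates Smad1, Smad5 and Smad9, which enter the nucleus with Smad4 and switch on targets such as the Id genes. Smad6 and Smad7 are themselves targets and block the receptor, so they form a negative feedback loop. In the limb the pathway acts on patterning at the distal margin, on removal of cells between the digits, and on formation of cartilage, joints and tendons. Id proteins have a helix-loop-helix domain but no DNA-binding region, and they keep basic helix-loop-helix factors from binding DNA.

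The cells came from embryos of C57BL/6 background that carry a SCX-GFP transgene, a green fluorescent reporter of scleraxis, the transcription factor of tendon progenitors. All stages carried the transgene, and no sort for GFP is named. By label 120 cells were of E10.5, 160 of E12.5 and 200 of E15.5, each given as hind limb, captured singly on the Fluidigm C1 microfluidic chip and sequenced in 12 library pools of 40 cells (pools 1 to 3, 4 to 7 and 8 to 12). Limbs of siblings of 1 litter had been combined, so each stage is 1 sample, stages could not be tested against each other, and the pools only divide 1 sample technically.

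The promoters of 3 genes are printed, out of the 6 members with a matched promoter entry. They are Id2 and Id3, which were both at their highest level at E12.5, and Smad6, the feedback inhibitor. Each runs from 250 bases before to 50 bases after the annotated start, 5′ to 3′ on the gene's own strand, from RefSeq (GRCm38.p6). Capitals mark GGCGCC, a core that Smad proteins bind in BMP-responsive elements, and GTCT, the Smad box, on either strand (AGAC when read from the opposite strand).
Id2, chr12:25096043-25096342, minus strand: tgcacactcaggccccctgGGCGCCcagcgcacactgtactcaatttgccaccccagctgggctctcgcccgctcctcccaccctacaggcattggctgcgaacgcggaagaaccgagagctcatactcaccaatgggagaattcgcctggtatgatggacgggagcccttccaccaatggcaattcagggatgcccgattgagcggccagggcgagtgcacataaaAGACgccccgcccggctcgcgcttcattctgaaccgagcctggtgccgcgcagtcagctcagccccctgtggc
Id3, chr4:136143572-136143871, plus strand: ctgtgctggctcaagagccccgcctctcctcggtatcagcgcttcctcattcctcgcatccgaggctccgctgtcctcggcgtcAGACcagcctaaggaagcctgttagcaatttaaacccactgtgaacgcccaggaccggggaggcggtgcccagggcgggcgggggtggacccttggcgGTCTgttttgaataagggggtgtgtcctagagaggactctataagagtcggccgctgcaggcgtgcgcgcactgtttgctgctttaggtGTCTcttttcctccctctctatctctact
Smad6, chr9:64022010-64022309, minus strand: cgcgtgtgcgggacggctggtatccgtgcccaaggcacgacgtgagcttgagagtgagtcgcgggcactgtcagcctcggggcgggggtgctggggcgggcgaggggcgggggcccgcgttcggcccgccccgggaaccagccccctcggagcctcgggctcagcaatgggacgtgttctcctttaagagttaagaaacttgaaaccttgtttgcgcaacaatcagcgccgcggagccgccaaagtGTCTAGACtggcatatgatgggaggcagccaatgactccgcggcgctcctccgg

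The RefSeq starts of Id2 and Id3 lie inside the outer limits of the GENCODE genes given with the values. Promoter entries were matched for 6 of the 10 genes, and none for Id1, Bmp2, Bmp7 and Smad7. In the Id2 promoter GGCGCC began at -231, where -1 is the base before the start and 1 the first base after it. GGCGCC was present in 11.9% of 32851 promoters of the same length. Among the members, the Bmpr1a promoter held it as well, at -198. The fuller BMP element, GGCGCC followed by 5 bases and GTCT, was in none of the 6 genes' promoters and in 0.0731% of all promoters. GTCT matched 3 times in the Id3 promoter, at -166, -68 and 22, and once in that of Id2, at -23. It is short and was found in 88.0% of promoters. In the Smad6 promoter GTCT at -4 was followed directly by AGAC at 1, an inverted repeat across the start that 70 of the 32851 promoters (0.213%) contained. This inverted repeat was searched for after the Smad6 sequence had been seen. The Id2 promoter also held CCAAT, the box bound by nuclear factor Y, at -159, -120 and -76, and 37.4% of promoters held at least 1. Both strands were searched for each motif, GTCT matches include those inside the longer motifs, and a match is a description of the letters.

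After removal of 3 cells with fewer than 1000 detected genes, 119, 158 and 200 cells remained, with medians of 272198, 250710 and 192228 counts per cell and 33742559, 46009284 and 46035725 counts per stage. Levels are CPM, a gene's summed counts scaled to the same total in every stage or pool. Their 95% intervals are exact Poisson intervals, and those of shares of cells are exact Clopper-Pearson intervals. The range given with a fold is an exact binomial 95% interval on the summed counts of both stages. All of these intervals cover counting error only, since reads multiplied by PCR are not independent molecules and cells of 1 sample share their embryos. The spread between pools is wider. A summed level cannot tell fewer cells of a type from less RNA per cell. No 2 cells held identical counts, and no doublet caller was run. Pitx1, a hind limb transcription factor, had 0 counts among cells labelled E10.5, which allows up to 2.52% of cells by a floor of 3 in 119. Its E12.5 level was 169 CPM (165 to 172) and its E15.5 level 68.7 CPM (66.3 to 71.1). The forelimb factor Tbx5 had counts in 73.1% of those labelled E10.5, but in 3.80% of those of E12.5 and 5.00% of those of E15.5. The cells labelled E10.5 therefore go against the hind limb label, and each direction drawn against them carries this difference.

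Compared per kilobase of exon, the Id genes were the highest of the 10 at every stage. At E12.5 Id3 was at 521 CPM per kb, Id1 at 438 and Id2 at 152, while Bmp4 was at 29.2, Bmpr1a at 22.8 and Bmp2 at 22.1. Smad6 was at 10.8, Smad7 at 10.3, Bmpr1b at 6.61 and Bmp7 at 2.65 CPM per kb. Among the ligands Bmp4 was the highest at all 3 stages, with 30.4, 29.2 and 37.1 CPM per kb. The order below it differed: Bmp7 (7.48) stood above Bmp2 (1.76) in the cells labelled E10.5, and Bmp2 stood above Bmp7 at E12.5 and at E15.5 (9.48 against 2.70). The plot of levels by library pool shows the 10 genes on their own scales.

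**Figure D1:**
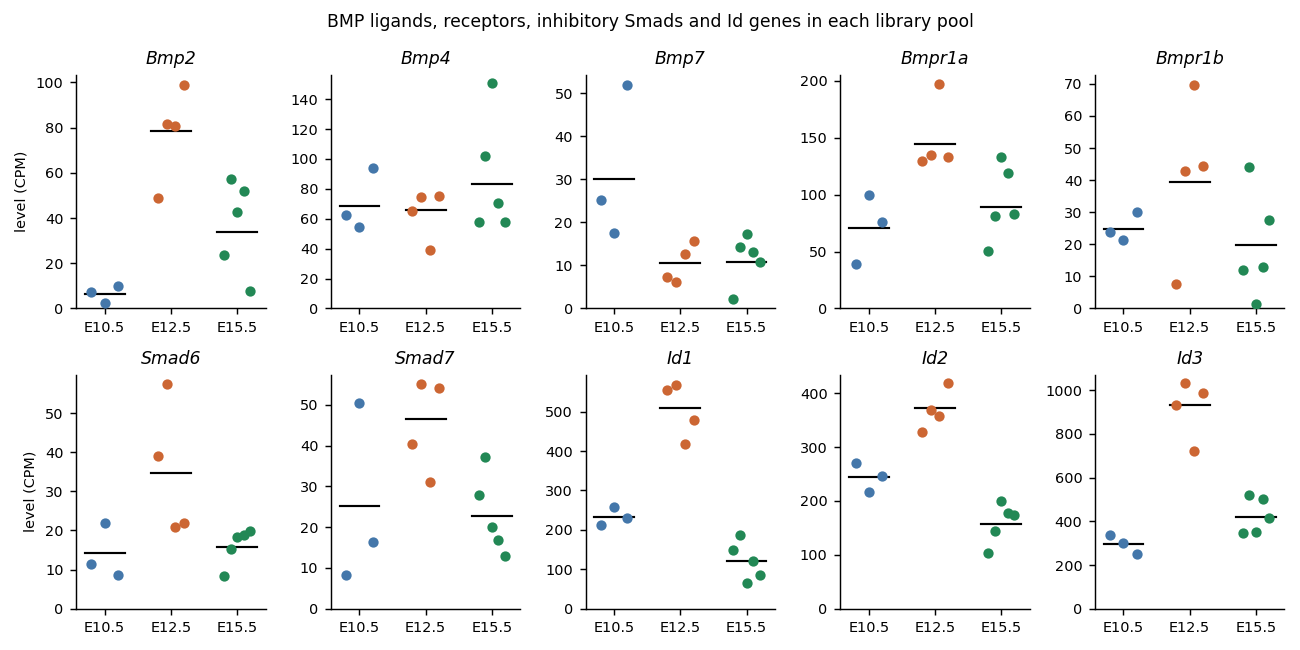
Level in CPM (y axis, from 0) of each of the 10 genes in each library pool (points) by stage (x axis), with the level of all cells of the stage as a black line. Id1, Id2 and Id3 were highest in the 4 E12.5 pools, while 2 of the 5 E15.5 pools of Bmp2 lie above its lowest E12.5 pool and the pools of Bmp4 overlap across all stages.

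Bmp2, a ligand of the limb margin, of interdigital tissue and of cartilage (GRCm38 chromosome 2, 133552159 to 133562885, plus strand), had the largest log2 ratio among the 3 member ligands. Its level was 7.16, 2.30 and 9.93 CPM in the pools labelled E10.5, and 48.8, 81.7, 80.7 and 98.7 CPM in the pools of E12.5. The 5 pools of E15.5 were at 23.6, 57.1, 42.5, 51.8 and 7.72 CPM. Every E12.5 pool lay above every pool labelled E10.5, while the E15.5 pools reached down to the range of E10.5 and up into that of E12.5. Over whole stages Bmp2 was at 6.25 CPM (5.44 to 7.16), 78.4 CPM (75.9 to 81.0) and 33.7 CPM (32.1 to 35.4). With each cell thinned to 50000 counts, 4.35% of 115 cells labelled E10.5 had a Bmp2 count (1.43 to 9.85), 43.0% of 149 cells at E12.5 (34.9 to 51.3) and 20.5% of 185 cells at E15.5 (15.0 to 27.1). The unthinned shares were 5.88%, 50.6% and 28.0%. In the cells labelled E10.5 the reads came from very few cells: 1 cell of pool 3 held 44.1% of the 211 counts and the top 5 cells 99.1%. At E12.5 the top cell held 10.0% and 12 cells made up 50% of the counts. Of the E12.5 counts 57.6% were in a limb bud-like cluster of cells (cluster 8 below), which held 44.3% of all counts of the stage.

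Bmp4, a ligand of the limb margin and mesenchyme (chromosome 14, 46383520 to 46390669, minus strand), was read at 68.4, 65.6 and 83.5 CPM over the 3 stages. Its pools labelled E10.5 were at 62.3, 54.3 and 93.8 CPM. They were at 65.3, 74.4, 39.1 and 75.0 CPM at E12.5, and at 57.5, 101.7, 150.9, 70.8 and 57.8 CPM at E15.5. The ranges overlap in every comparison, and the log2 ratios of Bmp4 were -0.06, 0.33 and 0.27. With each cell given the same weight they were 0.96 for E15.5 against E12.5 and 0.81 for E15.5 against E10.5, still not called. A count was present in 32.2%, 26.8% and 32.4% of thinned cells, with intervals of 23.8 to 41.5, 19.9 to 34.7 and 25.7 to 39.7. The highest pool of E15.5, pool 10, held the cell with the most Bmp4, at 6415 CPM, which gave 20.0% of the stage's counts. An exon of Gm15217 on the opposite strand shares 89 bases with Bmp4. The sources used here do not say whether counting used strand. As the libraries do not mark strand, reads of these bases cannot be told apart.

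Bmp7 (chromosome 2, 172868012 to 172940321, minus strand), a ligand that can pair with Bmp2 or Bmp4, was highest in the cells labelled E10.5. There the pools were at 25.1, 17.6 and 51.9 CPM, against 7.26, 6.09, 12.7 and 15.7 CPM at E12.5 and 2.31, 14.2, 17.4, 13.1 and 10.8 CPM at E15.5. Every pool labelled E10.5 lay above every later pool, by a margin of 17.6 against 17.4 CPM at the nearest point. Thinned cells with a count made up 18.3% (11.67 to 26.5), 8.05% (4.23 to 13.6) and 9.73% (5.87 to 14.9). The counts were concentrated: 4 of 119, 3 of 158 and 5 of 200 cells held 50% of them.

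Of the 2 type I receptors, Bmpr1a (chromosome 14, 34410734 to 34503341, minus strand), the more broadly used BMP receptor, was read in more cells than Bmpr1b at each stage. Bmpr1a was at 39.4, 99.9 and 75.8 CPM in the pools labelled E10.5, at 129.5, 134, 198 and 133 CPM at E12.5, and at 50.8, 81.7, 133, 119 and 82.6 CPM at E15.5. Every E12.5 pool lay above every pool labelled E10.5, and the E15.5 pools overlapped both. Shares of thinned cells were 41.7% (32.6 to 51.3), 62.4% (54.1 to 70.2) and 52.4% (45.0 to 59.8). An exon of the antisense gene Gm17110 shares 290 bases with Bmpr1a. Bmpr1b (chromosome 3, 141837136 to 142169425, minus strand), a receptor of cartilage condensations that binds Gdf5, varied more between pools of 1 stage than between stages. It was at 23.9, 21.4 and 30.1 CPM in the pools labelled E10.5, at 7.77, 42.8, 69.5 and 44.3 CPM at E12.5, and at 11.9, 44.0, 1.28, 12.9 and 27.7 CPM at E15.5. At E15.5, 3 of 200 cells held 50% of its counts and the top 5 cells 77.3%. Both receptors were read together in 4 of 115, 19 of 149 and 11 of 185 thinned cells. At E12.5 these 19 cells were 70.4% of the Bmpr1b cells and 20.4% of the Bmpr1a cells, while 62.4% of all cells had Bmpr1a.

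The inhibitory Smads were both highest at E12.5 by whole-stage level, but neither met the rule for a call. Smad6 (chromosome 9, 63953076 to 64022059, minus strand), which acts mainly against BMP receptors and whose promoter with the inverted repeat is printed above, was at 11.3, 21.9 and 8.68 CPM in the pools labelled E10.5. It was at 38.9, 57.3, 20.9 and 21.9 CPM at E12.5 and at 8.25, 15.2, 18.4, 18.9 and 19.9 CPM at E15.5. The E12.5 pools lay above all E15.5 pools, with 20.9 against 19.9 CPM at the nearest point, and pool 6 lay below pool 2. Smad7, which also acts against receptors of transforming growth factor beta, was at 8.21, 50.4 and 16.3 CPM, then at 40.4, 55.0, 31.0 and 54.0 CPM, then at 27.8, 37.3, 19.9, 16.8 and 13.0 CPM. Its pool 2 lay inside the range of E12.5 and the other pools labelled E10.5 below it. Without pool 2, the Smad7 fold of E12.5 over E10.5 went from 1.84 to 3.96, and Smad6, Smad7 and Bmpr1a were then all called higher. In thinned cells Smad6 was read in 13.0%, 20.1% and 19.5%, and Smad7 in 21.7%, 36.2% and 21.6%. Both were read together in 14 of 149 cells at E12.5, which is 46.7% of the Smad6 cells and 25.9% of the Smad7 cells.

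In each of the 3 Id genes the pools of different stages did not overlap. Of all 13125 genes, 19.8% had pools without overlap for E12.5 against E10.5. The shares were 9.05% for E15.5 against E12.5 and 24.8% for E15.5 against E10.5. Id1 lies on the plus strand of chromosome 2, from 152736251 to 152737410. It was at 212, 259 and 229.7 CPM in the pools labelled E10.5, at 554, 568.2, 419 and 478 CPM at E12.5, and at 149.6, 187, 65.1, 121 and 86.7 CPM at E15.5. All E12.5 pools were highest and all E15.5 pools lowest. Id2 (chromosome 12, 25093799 to 25097140, minus strand) was at 270.0, 217 and 247 CPM, then at 328, 368, 357 and 418 CPM, then at 104, 143.5, 199.8, 178.5 and 173.5 CPM. Id2 had the same order of stages without overlap. Id3 lies on the plus strand of chromosome 4, from 136143497 to 136145755. It was at 336, 300.1 and 249 CPM, then at 931, 1031, 723 and 987 CPM, then at 349, 522, 352, 501 and 416 CPM. Its pools were also apart at each step, but E15.5 stood above E10.5 rather than below it.

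Whole-stage levels of Id1 were 233 CPM (228 to 239), 508 CPM (502 to 515) and 122 CPM (119 to 125). Those of Id2 were 245 CPM (240 to 250), 372 CPM (366 to 377) and 157 CPM (153 to 160). Id3 was at 299 CPM (293 to 304), 934 CPM (925 to 943) and 422 CPM (416 to 428). These reads were spread over many cells: the top cell held between 3.31% and 5.25% of the counts of any Id gene at any stage, and 50% of the counts took 20 to 28 cells. Shares of thinned cells with a count were 81.7%, 85.9% and 56.2% for Id1, 82.6%, 87.9% and 63.2% for Id2, and 90.4%, 96.6% and 84.3% for Id3. With at least 5 thinned counts required, Id1 was present in 59.1%, 75.2% and 39.5% of cells. At E15.5 the share without Id1 was thus larger than at either earlier stage. Before thinning, 67.0% of the E15.5 cells had an Id1 count and 74.0% an Id2 count, and the plot of single cells shows the remaining cells at 0.

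**Figure D2:**
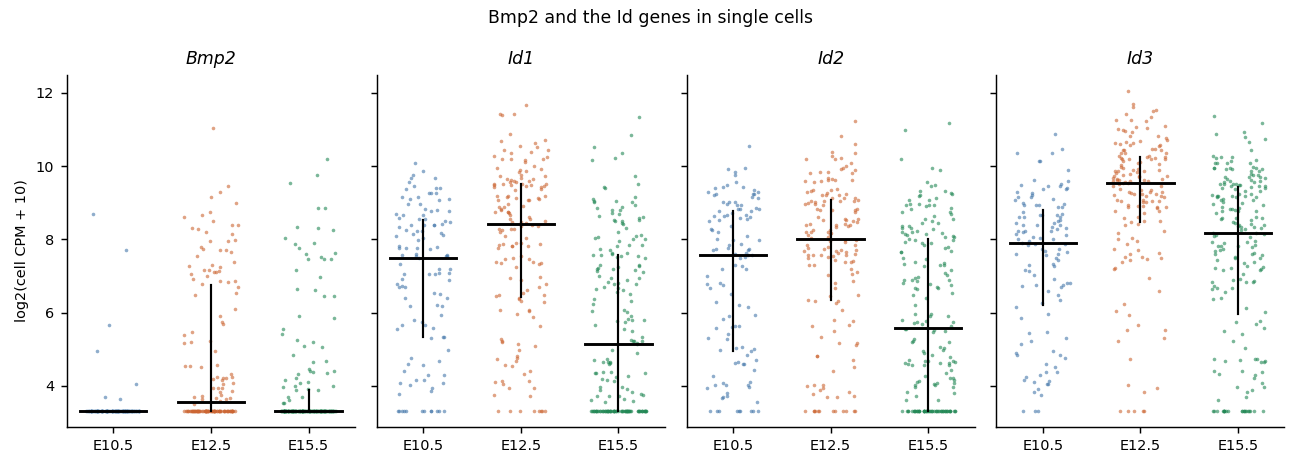
Level of Bmp2, Id1, Id2 and Id3 in each kept cell as log2(cell CPM + 10) (y axis) by stage (x axis), with the median as a horizontal bar and the interquartile range as a vertical bar. From E10.5 to E15.5 the median Id1 level was 170.3, 332 and 25.7 CPM, and the median Bmp2 level was 0, 1.78 and 0 CPM.

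The first comparison asks how limb cells at E12.5, when tissues begin to differentiate, differ from the cells labelled E10.5. Bmp2, Id1 and Id3 were higher at E12.5 and Bmp7 was lower. A gene was called when the log2 ratio, with 5 added to each CPM, was at least 1 in size and the pools of both stages did not overlap. By this rule 3 of the 10 genes were called higher, beside 7.76% of all 13125 genes, and 1 was called lower, beside 2.83%. Bmp2 was 12.54-fold higher (10.9 to 14.5, log2 ratio 2.89), Id3 3.13-fold (3.06 to 3.20, 1.63) and Id1 2.18-fold (2.12 to 2.23, 1.11), and Bmp7 was 2.82-fold lower (2.53 to 3.15, log2 ratio -1.16). Bmpr1a, at a log2 ratio of 0.98, and Id2, at 0.59, had pools fully above but missed the size, and Bmpr1a was called in 8 of 16 alternatives. Smad6 had the size, at 1.04, but its pools overlapped. The median log2 ratio of the 10 genes was 0.88, and that of all genes tested 0.17.

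Of these calls, those of Bmp7 and Id1 depend on a setting. The Bmp7 call ended without pool 3, at a log2 ratio of -0.76, and the Id1 call ended with TMM factors, which scale libraries to a common bulk of genes, at 0.97. TMM also moved the share of higher genes among all called genes from 73.3% (1018 higher, 371 lower) to 63.0% (857 and 504). In the same comparison 4 of 8 immediate-early genes (Fos, Fosb, Jun and Egr1) were called higher, beside 7.76% of all genes. Immediate-early genes respond within minutes to stimulation and to tissue dissociation. The summed level of this list was 803 to 1027 CPM over the pools labelled E10.5, 2629 to 3477 CPM at E12.5 and 4249 to 4838 CPM at E15.5, and all 8 genes had counts at each stage. Its part in the Id levels was not tested. None of 8 cell cycle genes was called.

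The second comparison asks how E15.5, when tissues of the limb are laid down, differs from E12.5. All 3 Id genes were lower at E15.5, and no ligand, receptor or inhibitory Smad among the members was called. Counted over the set, 3 of 10 genes were called lower, beside 1.63% of all genes, and 0 of 10 were called higher, beside 2.99%. Id1 was 4.17-fold lower (4.05 to 4.29, log2 ratio -2.02), Id2 2.37-fold (2.31 to 2.44, -1.22) and Id3 2.21-fold (2.18 to 2.25, -1.14). These 3 calls held in all 18 alternatives run for this comparison. Bmp2 was 2.33-fold lower over the whole stage (log2 ratio -1.11), but its pools overlapped, and it was called without pool 4. Smad6 lay below in every pool at -0.93, and was called in 5 of 18 alternatives. Bmp4, at 0.33, and Bmp7, at 0.02, were the only members with a log2 ratio above 0. The median of the 10 genes was -0.91 and that of all genes -0.04.

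The makeup of the cells also differed between E12.5 and E15.5. The 9 connective tissue genes summed to between 888 and 1573 CPM over the E12.5 pools and to between 5281 and 8434 CPM over the E15.5 pools. Of these, 8 of 9 were called higher, beside 2.99% of all genes. The 10 epithelial genes summed to 26.4 to 316 CPM over the E12.5 pools, with Krt8 at 0, and to 546 to 1064 CPM over the E15.5 pools, with none at 0. The 8 immune genes summed to 0 to 26.3 CPM and to 2.97 to 1888 CPM, with Ptprc, Csf1r, Cpa3 and Cma1 at 0 at E12.5. Without the endothelial-like, epithelial-like and muscle-like cells the log2 ratios were -1.98 for Id1, -1.21 for Id2 and -1.19 for Id3. The part of the connective and immune genes in the result was not tested.

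Across the whole span, E15.5 against the cells labelled E10.5, only Bmp7 was called among the members. That is 1 of 10 lower, beside 5.01% of all genes, and 0 of 10 higher, beside 11.2%. Bmp7 was 2.78-fold lower (2.49 to 3.10, log2 ratio -1.15), and its call ended in 5 of 17 alternatives, among them without pool 3 (-0.74) and without pool 8 (-0.91). Id1 and Id2 had all E15.5 pools below those labelled E10.5, with log2 ratios of -0.91 and -0.63, and Id3 had all of them above, at 0.49. Id1 was called lower without pool 8 (-1.01) or pool 9 (-1.08). Bmp2 was 5.39-fold higher (log2 ratio 1.78) with overlapping pools, and it was called without pool 3 or without pool 12, at 7.03-fold and 6.70-fold. This comparison shares its samples with the other 2 and adds no new cells.

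The other genes of the pathway were read from role lists of 59 genes, of which 52 were tested. E12.5 against E10.5 had 11 higher and 3 lower, beside 7.76% and 2.83% of all genes. E15.5 against E12.5 had 3 higher, beside 2.99%, and 6 lower, beside 1.63%. The whole span had 13 higher and 5 lower, beside 11.2% and 5.01%. The heatmap of pathway genes shows the members and the called genes reported here by pool.

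**Figure D3:**
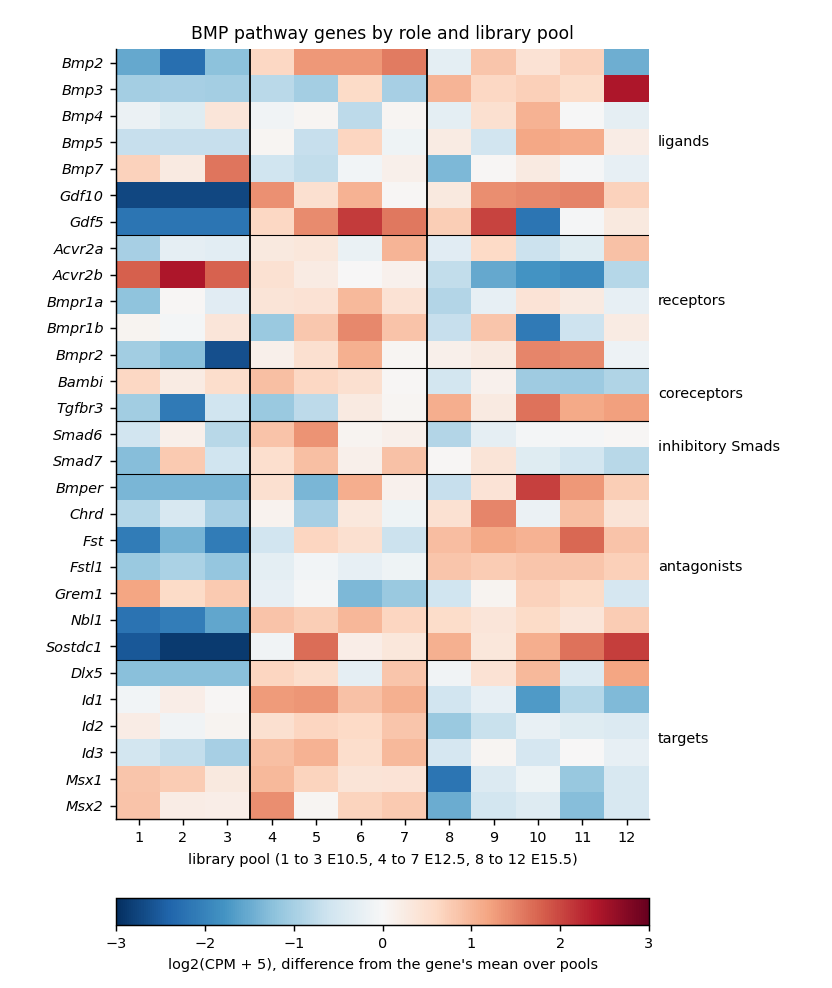
Level of each member and each reported called gene of the BMP role lists (rows, grouped by role) in the 12 library pools (columns), as log2(CPM + 5) minus the gene's mean over pools (colour). The Id genes are red in pools 4 to 7, Acvr2b in pools 1 to 3, and most antagonists in the pools from 4 or 8 onwards.

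Among 9 ligands tested, Gdf5 and Gdf10 were called higher at E12.5 beside Bmp2. Gdf5, the joint ligand that signals through Bmpr1b, had 0 counts among cells labelled E10.5 and was at 30.1 to 93.2 CPM over the E12.5 pools. Gdf10, a ligand of the Bmp3 subgroup, also had 0 counts there and was at 29.1 to 80.9 CPM, at least 580.8-fold higher against a floor of 3 counts over the stage. Bmp3, which opposes other BMPs in bone, was at 0.0296, 2.13 and 21.2 CPM and was called over the whole span, 1 count standing against 976. Bmp5 went from 0 counts to 3.02 and 6.54 CPM, at least 73.5-fold higher over the span. Few cells carried this Bmp5 call: pool 9 of E15.5 had 3 counts in 1 cell, and pools 8 and 10 had counts in 2 cells each. Bmp8a and Gdf7 were listed at 0 in all 3 stages. No ligand was called between E12.5 and E15.5.

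Among the called receptors the largest difference was in Acvr2b, a type II receptor that binds activins and some BMPs. It was at 354 to 556 CPM over the pools labelled E10.5, at 101 to 138 CPM at E12.5 and at 23.2 to 57.2 CPM at E15.5, so no pools overlapped and each step was a call. It was 3.64-fold lower at the first step, 2.91-fold at the second and 10.6-fold over the span. Bmpr2, the BMP type II receptor, was in the opposite order, at 2.61 to 18.0, 44.3 to 94.2 and 37.2 to 126 CPM. It was 4.69-fold higher at E12.5, was not called from E12.5 to E15.5, and was called higher over the whole span. Acvrl1, a receptor of endothelial cells, was at 12.1, 1.00 and 13.8 CPM with overlapping pools and was not called. Without pool 6 it was called lower at the first step and higher at the second, as it was without pool 1 and without pool 10 respectively. Acvr2a was 2.20-fold higher at E12.5, a call that ended without pool 1 (log2 ratio 0.80) or pool 7 (0.71). Tgfbr3, the coreceptor betaglycan, was 3.09-fold higher in the step from E12.5 to E15.5. Bambi, a decoy receptor without kinase domain, was 2.39-fold lower over the whole span. The 4 transducers Smad1, Smad4, Smad5 and Smad9 were not called in any comparison. Smad1, for example, was at 36.5, 66.8 and 79.0 CPM and Smad5 at 103, 171 and 142 CPM. The ubiquitin ligases Smurf1 and Smurf2, listed with the inhibitory Smads, were not called either.

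The antagonists, secreted proteins that bind BMPs and keep them from receptors, were the role with the most calls over the whole span, 7 of 12 tested, all higher at E15.5, beside 11.2% of all genes. Sostdc1 was at 0 to 1.29 CPM in the pools labelled E10.5, 29.3 to 112 CPM at E12.5 and 41.3 to 150.3 CPM at E15.5. It was 115-fold higher at E12.5, and between 75.1-fold and 76.4-fold without pool 2 or pool 5. The cells labelled E10.5 held 16 counts of Sostdc1, all in 1 cell of pool 1, and without that pool no fold could be given. Nbl1 was 9.03-fold higher at E12.5, at 101 to 130.0 CPM against 9.41 to 17.9 CPM. Fst, follistatin, was 15.6-fold higher at E12.5 (9.83-fold without pool 1) and a further 2.51-fold higher at E15.5, a second step that was not called without pool 4, 7 or 11. Among cells labelled E10.5 its 36 counts were all in 1 cell of pool 2, and without that pool no fold of the first step could be given. Grem1, the antagonist of the signalling loop between mesenchyme and limb margin, was 4.77-fold lower at E12.5, at 0.575 to 8.60 CPM against 16.3 to 27.5 CPM. Noggin (Nog) was low throughout, at 5.30, 4.41 and 4.15 CPM. Bmper and Chrd were called higher over the span, Bmper at least 223.6-fold and Chrd 11.6-fold, or 34.7-fold without pool 2. Fstl1, an abundant relative of follistatin, was 3.66-fold higher over the span. It was at 430 to 501, 800.3 to 927 and 1598 to 1734 CPM over the pools of the 3 stages.

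Of the 11 target genes tested, Msx1 and Msx2 were called lower at E15.5 beside the Id genes, which makes 5 of 11 and a median log2 ratio of -1.08. Msx1, a homeobox gene of undifferentiated limb mesenchyme, was at 362 to 525 CPM in the pools labelled E10.5, 387 to 581.4 CPM at E12.5 and 60.5 to 267 CPM at E15.5. It was 2.67-fold lower in the step from E12.5 to E15.5 but, unlike Id1 and Id3, was not called at the step before, where its whole-stage levels were 469 and 457 CPM. Msx2 followed at 22.1, 29.1 and 6.23 CPM and was 4.66-fold lower. Dlx5, a homeobox gene of early skeletal cells, had 0 counts at E10.5 and was at 12.6 CPM at both later stages. Limb bud genes were lower at E15.5 in the same comparison, 5 of 10 tested (Prrx2, Lhx2, Lhx9, Pitx1 and Hoxd13), beside 1.63% of all genes. Their part in the result was not tested. Of 6 partners of Id proteins tested, Tcf4, Twist2 and Hand2 were called higher at E12.5, beside 7.76% of all genes. They were at 2.32-fold, 2.33-fold and 2.14-fold. At E15.5 Hand2 was 2.87-fold lower and Twist2 2.45-fold higher than at E12.5. The calls of Twist2 and Hand2 at E12.5 ended when pool 1 was left out (0.88 and 0.82), that of Twist2 without pool 3 (0.94) and that of Hand2 without pool 7 (0.86).

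Within a stage, ligand reads were scattered over cells. After thinning, 56.5%, 41.6% and 53.0% of cells, from the earliest stage to the latest, had no count of Bmp2, Bmp4 or Bmp7. A single ligand was read in 32.2%, 41.6% and 34.1%, and all 3 in 0 of 115, 4 of 149 and 5 of 185 cells. At E12.5, 9 of the 12 Bmp7 cells had Bmp2 as well, while 43.0% of all cells had Bmp2, and these 9 were 14.1% of the 64 Bmp2 cells. All 3 Id genes were read together in 63.5%, 77.9% and 36.8% of thinned cells. A cell without any Id gene was found only at E15.5, in 9 of 185 cells (4.86%, interval 2.25 to 9.03).

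Id levels were set beside the ligand and feedback genes of the same cell. Over the 27 combinations of 3 ligands, 3 Id genes and 3 stages, the median Id level was higher in cells with the ligand in 18, lower in 8 and equal in 1. By the mean it was higher with the ligand in 15 and lower in 12. At E12.5 the 64 cells with Bmp2 had a median Id1 level of 440.0 CPM in thinned counts, against 280.0 CPM in the 85 cells without it, while the means were 503 and 508 CPM. The 30 cells with Smad6 had 970.0 CPM of Id3, against 680.0 CPM in the 119 cells without Smad6, with means of 1100.0 and 846 CPM. Among cells labelled E10.5 the medians of Id3 were 260 CPM in 15 cells with Smad6 and 200 CPM in 100 without. At E15.5 the order was the reverse, 260 CPM in 36 cells with Smad6 against 380 CPM in 149 without, with means of 407 and 440 CPM. At E15.5 the 97 cells with Bmpr1a had 260.0 CPM of Id3, against 370.0 CPM in the 88 cells without it, with means of 433 and 435 CPM. These are values over cells of 1 sample, and no test was run.

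By the mean over stages, the 3 pairs of Id genes had the highest correlations across cells. Pearson r of log2(cell CPM + 10) between 2 Id genes was 0.15 to 0.47 over the 9 values of 3 pairs and 3 stages, with a median of 0.28. The 126 values of the 42 other pairs ran from -0.18 to 0.30, with a median of 0.05. The pair Id2 and Id3 had 0.28 in 119 cells labelled E10.5, 0.47 in 158 cells at E12.5 and 0.25 in 200 cells at E15.5. Id1 and Id3 had 0.37, 0.36 and 0.22. Bmp4 and Bmpr1a, the highest pair outside the Id genes by the mean, had 0.30, 0.20 and 0.12. In the cells labelled E10.5 this was above Id1 with Id2 (0.15) and Id2 with Id3. Cells of a stage share library and depth differences, and weak values in sparse counts are no finding.

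**Figure D4:**
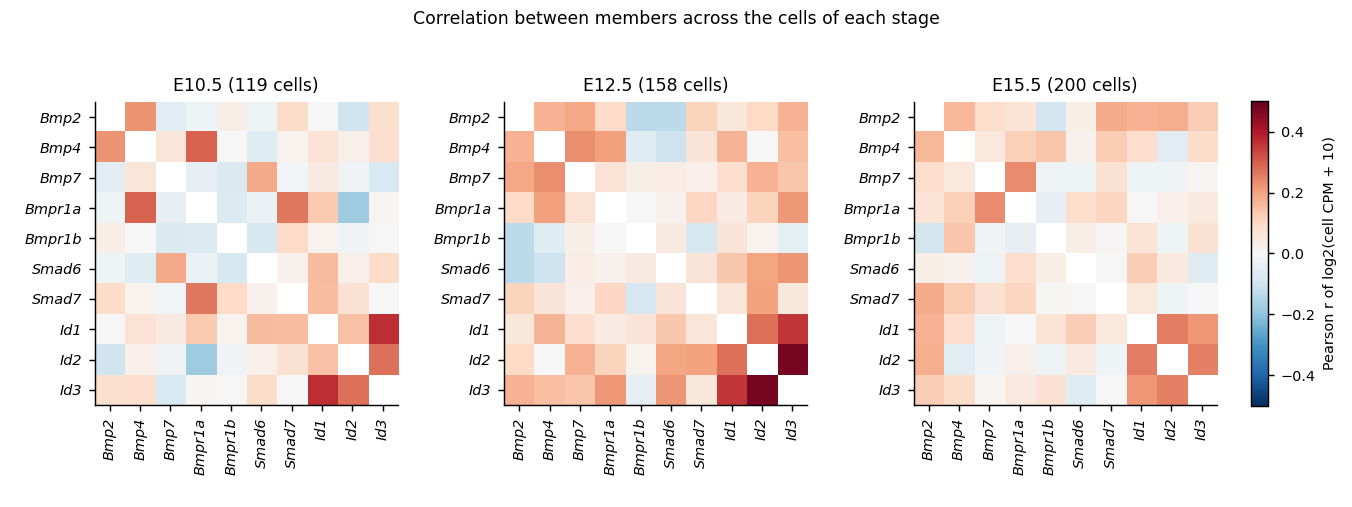
Pearson r between pairs of the 10 genes (rows and columns, diagonal left white) across the cells of each stage (panels), on log2(cell CPM + 10). The block of Id1, Id2 and Id3 at the lower right holds values from 0.15 to 0.47, and other pairs lie between -0.18 and 0.30, with Bmp4 and Bmpr1a the highest of these in the cells labelled E10.5.

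Likeness over all genes gave the same group. Among genes read in 20% or more of the cells of each stage (6781 for each Id gene), the gene most like Id1 was Id3 (mean r over stages 0.31), that most like Id2 was Id3 (0.33), and those most like Id3 were Id2 and Id1. For none of the other 7 members did any gene reach a mean r of 0.3. Ier2, an immediate-early gene, followed Id3 for Id1 (0.23) and Id1 for Id3 (0.24).

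Cells were clustered without any gene of the BMP or partner lists, so no member defined a cluster directly. Stage and depth still differed between clusters, so levels within them are not independent of the clustering. The 9 clusters largely followed the stages, and 4 kinds of cell were named from fixed markers besides limb bud: endothelial-like (18 cells), cartilage-like (47), epithelial-like (35) and muscle-like (18). Cluster 1 was limb bud-like by Tbx5, Meis1, Meis2 and Lhx2, with the globin Hbb-bh1 among its leading genes, and held 114 cells labelled E10.5. Cluster 8 was limb bud-like by Hoxd13, Prrx2 and Lhx9, with Hoxd12 and Evx1 among its leading genes, and held 48 E12.5 cells. Cluster 3 (72 of 81 cells from E12.5, led by Apoe and Polr2a), cluster 4 (19 cells, led by protocadherin alpha genes) and cluster 6 (93 E15.5 cells, led by Cma1 and Cpa3, genes of mast cells, with the connective genes Dcn, Lum and Thy1 further down) stayed unnamed.

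At E12.5 limb bud-like cluster 8 had the highest levels of Bmp2, Bmp7, Smad7, Id1, Id2 and Id3 among clusters with at least 10 cells of that stage. There Bmp2 was at 102 CPM and read in 60.4% of thinned cells, against 84.7 CPM and 38.5% in cluster 3. Id1 was at 610.6 CPM, Id2 at 467 CPM and Id3 at 1098 CPM, against 473, 307 and 928 CPM in cluster 3. Its median depth was 1.64 times that of the cells' own stages, and that of cluster 3 was 0.688 times. With coarser clustering (Leiden resolution 0.5) most cells of clusters 3 and 8 fell into 1 limb bud-like cluster of 113 cells. No cluster was then cartilage-like. Among the small E12.5 groups, 8 cartilage-like cells had 589.4 CPM of Id1 and 138 CPM of Bmpr1b, and 7 muscle-like cells had 126 CPM of Bmpr1b. Top cells held 53.3% and 63.0% of those Bmpr1b counts. At E15.5, cluster 6 held 73.4% of the Bmp4 counts with 45.0% of all counts, and was at 136 CPM of Bmp4. It held the 1 cell that gave 20.0% of the stage's Bmp4 counts. Cluster 4 was higher, at 156 CPM of Bmp4 in 8 cells. Bmp4 was at 0.26 CPM in the 10 endothelial-like cells of that stage, and Bmp2 at 2.66 CPM in the 28 epithelial-like cells.

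**Figure D5:**
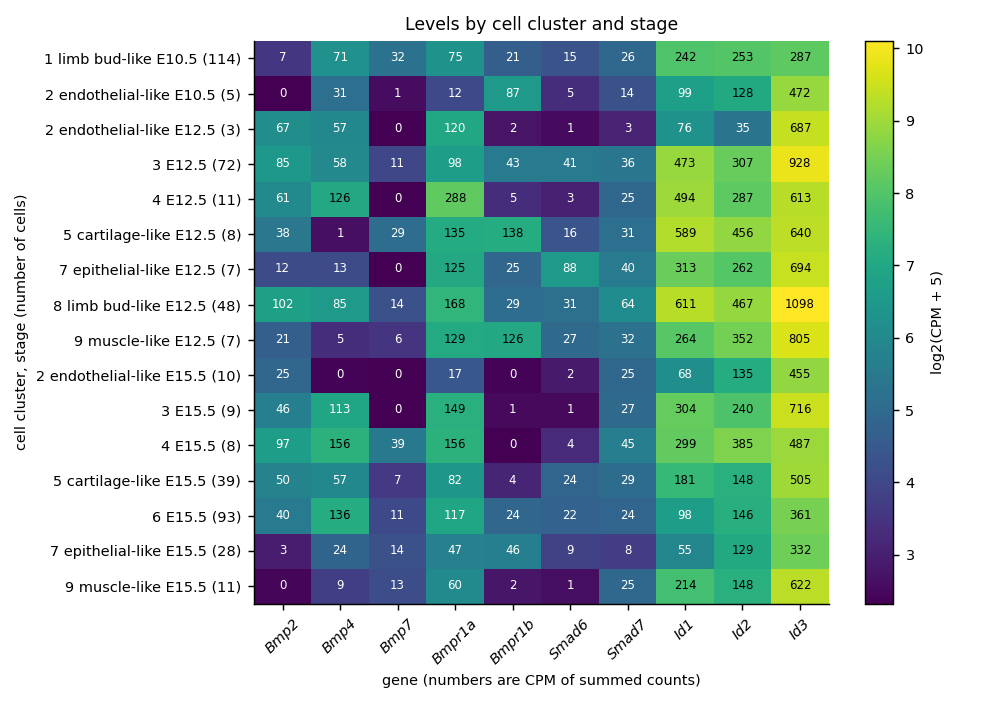
CPM of summed counts (numbers, with colour on a log2 scale) of each of the 10 genes (columns) in each cell cluster and stage with at least 3 cells (rows, number of cells in parentheses). Id3 is the highest gene in every row, and Id1 in epithelial-like cells went from 313 CPM in 7 cells at E12.5 to 55.0 CPM in 28 cells at E15.5.

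Levels at E15.5 and E12.5 were also compared within clusters. In 6 clusters with at least 3 cells at both stages, the summed level at E15.5 was below that at E12.5 in 6 of 6 for Id1, in 6 of 6 for Id3 and in 4 of 6 for Id2. Bmpr1a and Bmpr1b were lower in 5 of 6, Bmp2 and Smad7 in 4, Smad6 in 3, Bmp7 in 2 and Bmp4 in 1. Cluster 8, with 44.3% of the E12.5 counts, and cluster 6, with 45.0% of the E15.5 counts, could not be compared. In epithelial-like cells Id1 was 5.69-fold lower, in cartilage-like cells 3.25-fold (589.4 and 181 CPM), in muscle-like cells 1.24-fold and in endothelial-like cells 1.11-fold (75.7 and 68.1 CPM). In clusters 3 and 4 Id1 was 1.56-fold and 1.65-fold lower, beside 4.17-fold over the whole stages. Id3 was 2.09-fold lower in epithelial-like cells and between 1.26-fold and 1.51-fold lower in the other 5. Id2 was higher at E15.5 in endothelial-like cells (34.9 and 135 CPM in 3 and 10 cells) and in cluster 4 (287 and 385 CPM). These groups hold 3 to 72 cells of 1 sample each, and single cells held up to 76.2% of the counts of an Id gene in them.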

How the data were processed

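RNA of single cells was read on the Fluidigm C1 with Nextera XT libraries, per the labels' protocols. The deposited table holds counts per gene and cell. Bowtie2, featureCounts and the build mm10 are named in the submitters' processing notes, while versions, annotation, strand setting and molecular identifiers stand as not given in the sources used here. Of the samples of the series, 480 cells were used, and 1120 others were not analysed here. Groups came from the developmental stage in the labels. Libraries do not mark strand, and reads of overlapping genes cannot be told apart.

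Cells with at least 1000 detected genes were kept. Counts were summed per stage and pool and given as CPM. Ratios used 5 added to each CPM, and a call needed a log2 ratio of 1 and pools without overlap. Named genes are the 10 members, the called genes of the role lists except 1 that is not reported here (counts of lists include it), and for each member up to 3 genes of highest mean r, from 0.3. The members and lists were chosen with earlier results of these data known. Cells were clustered with scanpy 1.11.5 (2000 variable genes, 15 components, 15 neighbours, Leiden resolution 1). A cluster was named from at least 3 fixed markers among its top 100 genes, unless its leading genes went against the name, a rule set after the data were seen. TMM factors came from edgeR 4.0.16. The call script was tested on simulated data. Coordinates are GENCODE on GRCm38 and exon lengths come from the same annotation. Alternatives were other scalings, filters, thresholds, and leaving out each pool in turn, and for clusters a Leiden resolution of 0.5.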

Additional observations from a re-analysis of the deposited data

Results flagged for a closer look

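Among 20 groups of library pools examined (10 genes at E12.5 and at E15.5), 1 held a pool far from the others. Bmpr1a in pool 6 of E12.5 was at 198 CPM, and the nearest pool was at 134 CPM. The gap was 0.928 of the range of the 4 pools, above Dixon's critical value of 0.829. Chance flags about 1 in 20 groups.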

How the results depend on the processing

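Over 30 ratios of members, the alternatives gave 510 values, of which 0 reversed a called direction, 7 lost a call and 28 gained one. Another 15 values changed sign in ratios that were not called. With a fold of 1.5 as the threshold, 5 members were higher at E12.5 than at E10.5 and 3 were lower at E15.5 than at E10.5. All genes called higher then numbered 1476 for E12.5 against E10.5. Those called lower numbered 705 for E12.5 against E10.5, 459 for E15.5 against E12.5 and 1127 for E15.5 against E10.5. With TMM factors 5 BMP pathway genes were called higher in E15.5 against E12.5, beside 434 of all genes. For E15.5 against E10.5, 0 members were lower among cells with at least 3000 detected genes, beside 643 of all genes. Without endothelial-like, epithelial-like and muscle-like cells 0 were lower, beside 732 of all genes, and 1 was higher, beside 1425. With each gene's highest cell per pool removed 1 was higher, beside 1358 of all genes.

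Leaving out 1 pool at a time gave 3 to 6 members higher and 0 to 1 lower for E12.5 against E10.5, 3 to 4 lower for E15.5 against E12.5, and 0 to 1 higher and 0 to 2 lower for E15.5 against E10.5. BMP pathway genes called higher in E15.5 against E12.5 numbered 2 to 5. Fewer pools overlap less easily: over all genes, E12.5 against E10.5 then had 1141 to 1326 higher against 1018, and 430 to 475 lower against 371. For E15.5 against E12.5 all genes had 440 to 531 higher against 392, and 232 to 296 lower against 214. For E15.5 against E10.5 they had 1569 to 1785 higher against 1475, and 679 to 798 lower against 657. Shares of cells with a count depend on depth: from 5 thinned counts Bmp2 was in 1.74%, 26.8% and 11.4% of cells, from the earliest stage to the latest. No paired analysis was possible because each stage is 1 sample of combined siblings, and pools of different stages share no number. With 1 sample per stage, the difference between litters cannot be told apart from that between stages.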
